A study of Homo sapiens with 4 samples.

Results

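The genes described here are 10 immediate early genes of human cells, FOS, FOSB, JUN, JUNB, JUND, ATF3, EGR1, KLF2, NR4A1 and IER2, of 20037 protein-coding genes on chromosomes 1 to 22, X and Y of the RefSeq annotation of GRCh38.p14. They were chosen by name, and every peak of CHAF1A CUT&Tag from 20 kb before to 20 kb past each gene was taken. These windows held 80 of the 98539 peaks listed for CHAF1A siRNA cells and 72 of the 77181 peaks listed for control siRNA cells. CHAF1A belongs to CAF-1, a complex that loads histones onto newly copied DNA, and CUT&Tag maps a protein by tethering a transposase to its antibody on chromatin.

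The cells were RBE, an established line of human intrahepatic cholangiocarcinoma, with no allele named in the labels. The si-CHAF1A group (2 samples) received an siRNA against CHAF1A and the si-Ctrl group (2 samples) a control siRNA, both with Lipofectamine 3000, and both were collected 48 hours after transfection. Each group has 1 deposited peak list, assigned here to the groups by list names that match the sample titles only in part. No list separates the samples of its group, so no difference between the conditions has a replicate check and none has a p-value, and the intervals given cover counting error only. A peak of CHAF1A is not a measure of expression, and the level of CHAF1A itself, which would check the knockdown, was not analysed here.

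Immediate early genes are switched on within minutes of a growth factor, cytokine or stress signal, with no need for new protein synthesis. Serum response factor and its partners act on CArG boxes in several of their promoters, and CREB family factors act on TGACGTCA elements. FOS and JUN family proteins join through a leucine zipper as the dimer AP-1, which binds TGANTCA sites, and the genes are often kept ready for induction, with open chromatin and RNA polymerase close to the start.

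Fold enrichment is the authors' ratio of the reads over a peak's summit to the local background, and −log10 q is the caller's strength of evidence. The number of reads over the summit and the local background were recovered by solving the authors' fold and p, which could be done for 99.2% of the si-CHAF1A peaks and 99.1% of the si-Ctrl peaks on these chromosomes. Nearly all of these gave a whole number of reads within 0.02, 96848 of 96856 in the si-CHAF1A list and 75649 of 75654 in the si-Ctrl list. The commonest background value among the peaks stood for the genome background and was 8.49 reads in the si-CHAF1A list, against 6.34 in the si-Ctrl list, a ratio of 1.34. Summit reads were divided by this value before the lists were compared, and "scaled reads" means the result. A list records peaks past the caller's threshold only, so a place without a peak is not a place without reads.

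The promoters of EGR1, FOS, JUND, KLF2 and FOSB are shown because they differ in their elements and in the peaks over their starts. This choice was made after their values were seen. Of the elements named above, EGR1 holds CArG boxes and JUND holds TGACGTCA. The stretches of FOS, KLF2 and FOSB hold none of those and only elements named after the sequences. Each is the 250 bases before the RefSeq start of GRCh38.p14, read 5′ to 3′ in the direction of the gene, with every match on either strand to the CArG box and to the other elements spelled out after the sequences in capitals; no 2 matches overlap. The EGR1 promoter lies at chr5:138465229-138465478 on the plus strand, that of FOS at chr14:75278578-75278827 on the plus strand and that of JUND at chr19:18281623-18281872 on the minus strand. The KLF2 promoter lies at chr19:16324576-16324825 and the FOSB promoter at chr19:45467746-45467995, both on the plus strand.
EGR1: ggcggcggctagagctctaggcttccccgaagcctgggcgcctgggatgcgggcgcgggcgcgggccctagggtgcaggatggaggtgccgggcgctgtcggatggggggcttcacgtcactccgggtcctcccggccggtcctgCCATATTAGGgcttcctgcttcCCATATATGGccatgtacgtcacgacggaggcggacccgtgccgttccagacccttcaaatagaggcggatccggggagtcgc
FOS: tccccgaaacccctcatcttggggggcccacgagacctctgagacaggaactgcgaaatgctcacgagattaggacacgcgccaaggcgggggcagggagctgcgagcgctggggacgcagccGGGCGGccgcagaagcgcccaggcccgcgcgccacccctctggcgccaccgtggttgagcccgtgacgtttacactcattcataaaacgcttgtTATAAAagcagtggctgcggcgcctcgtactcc
JUND: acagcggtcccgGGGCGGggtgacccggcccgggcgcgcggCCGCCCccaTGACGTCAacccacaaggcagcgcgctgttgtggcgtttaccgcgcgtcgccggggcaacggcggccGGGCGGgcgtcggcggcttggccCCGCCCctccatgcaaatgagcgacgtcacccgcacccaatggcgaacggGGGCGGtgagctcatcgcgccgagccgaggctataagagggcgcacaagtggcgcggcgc
KLF2: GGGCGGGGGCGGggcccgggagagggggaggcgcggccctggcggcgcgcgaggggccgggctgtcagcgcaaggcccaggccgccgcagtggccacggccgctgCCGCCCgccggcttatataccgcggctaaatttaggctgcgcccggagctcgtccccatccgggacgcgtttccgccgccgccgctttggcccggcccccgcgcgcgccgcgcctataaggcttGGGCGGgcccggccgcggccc
FOSB: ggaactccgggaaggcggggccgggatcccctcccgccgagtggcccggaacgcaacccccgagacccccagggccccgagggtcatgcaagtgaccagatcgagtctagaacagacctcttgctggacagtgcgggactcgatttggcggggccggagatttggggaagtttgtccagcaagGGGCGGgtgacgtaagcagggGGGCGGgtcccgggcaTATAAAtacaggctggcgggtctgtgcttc

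The EGR1 stretch holds 2 CArG boxes, at 105 to 96 and 83 to 74 bases before the start, and 1.16% of 35116 RefSeq promoter stretches of this length hold at least 1. The JUND stretch holds the palindrome TGACGTCA at 200 to 193 bases before the start, found in 1.65% of the stretches, and 5 copies of GGGCGG, the core of the SP1 site. This core is common, in 42.6% of the stretches, and KLF2 has 4 copies, 2 of them side by side at the far end of the stretch. The TATA box, searched as TATAAA, lies at 33 to 28 bases before the FOS start and at 30 to 25 before the FOSB start, against a share of 10.7% of all stretches, and JUNB has one at 31 to 26. None of the 10 genes had the AP-1 site TGANTCA, held by 6.57% of all stretches, in the stretch before its annotated start. These matches describe letters in a window and not bound sites.

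CHAF1A peaks covered those promoters to very different extents. The si-CHAF1A peak covered 244 and the si-Ctrl peak 250 of the 250 bases of the EGR1 stretch, and both lists covered all 250 bases of the FOS stretch. At JUND 229 bases were covered in the si-CHAF1A list and 250 in the si-Ctrl list. At KLF2 0 bases were covered in the si-CHAF1A list and 250 in the si-Ctrl list. At FOSB neither list covered any.

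A peak within 1 kb of the start was listed for 6 of the 10 genes in si-CHAF1A cells and for 8 in si-Ctrl cells. Among 15843 protein-coding genes with a known strand the shares were 61.2% in the si-CHAF1A list and 58.7% in the si-Ctrl list, so the share in si-CHAF1A cells was at this background. FOS, JUN, JUNB, JUND, EGR1 and IER2 had a start peak in both lists, where 54.2% of genes did. KLF2 and NR4A1 had one in the si-Ctrl list only, as had 4.45% of genes. No member had one in the si-CHAF1A list only, as 7% of genes had, and FOSB and ATF3 had none in either. The start here is the annotated gene start, and starts of other transcripts were not counted.

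**Figure D1:**
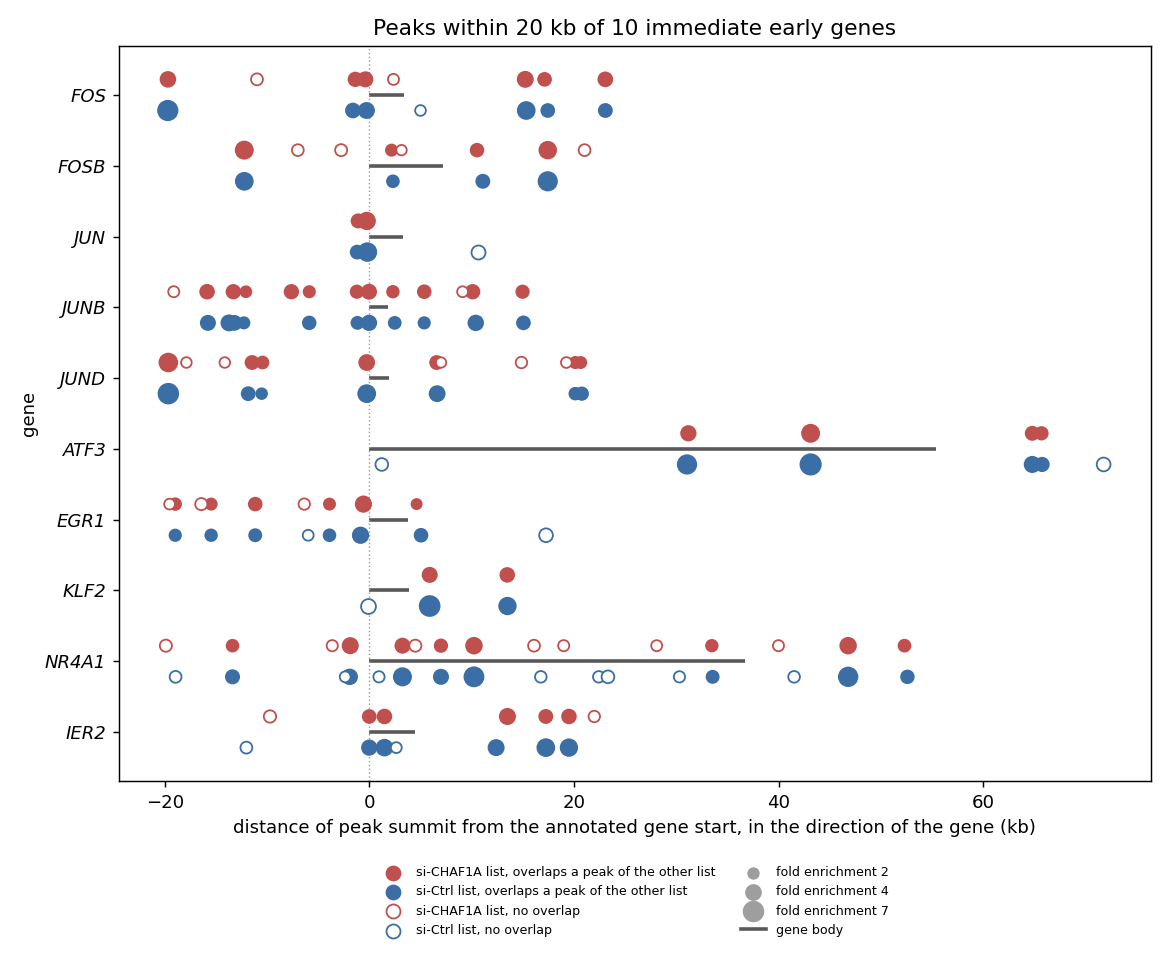
Position of every peak within 20 kb of the 10 genes, with the distance of the summit from the annotated start in kb on the horizontal axis and 1 row for each gene; the upper points of a row are the si-CHAF1A list, the lower points the si-Ctrl list, the area of a point is proportional to its fold enrichment and open points overlap no peak of the other list. Most filled points stand in matched pairs, and the KLF2 start has a point in the si-Ctrl list only. The open points have a lower median fold than the filled ones, 2.26 against 3.15 in the si-CHAF1A list. In the si-Ctrl list the medians are 2.45 and 3.66, with some open points above the si-Ctrl window median of 3.20.

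FOS, at chr14:75278828-75282230, codes for a partner of the JUN proteins in AP-1. It had a start peak with 177 summit reads in the si-CHAF1A list, against 133 in the si-Ctrl list. Its fold enrichment was 3.68 in si-CHAF1A cells and 4.10 in si-Ctrl cells. In scaled reads the lists differed by less than counting error, at 20.9 in the si-CHAF1A list and 21.0 in the si-Ctrl list, a ratio of 0.995 (95% interval 0.790 to 1.26). A further peak with its summit 1.4 kb to 1.6 kb before FOS reached a fold of 3.31 in si-CHAF1A cells and 3.46 in si-Ctrl cells.

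The FOS window differed between the lists mainly at its far edge. A peak 19.7 kb before the start had 77 summit reads and a fold of 3.93 in si-CHAF1A cells, against 99 reads and a fold of 6.80 in si-Ctrl cells. Its scaled ratio was 0.581 (0.426 to 0.791), the lowest of the 6 FOS pairs. The ratio at the distal end on the other side, 23.1 kb past the start, was 1.23 with an interval of 0.806 to 1.91. A peak near the start of the noncoding gene LINC01220, 15.2 kb past the FOS start, had 148 reads in si-CHAF1A cells and 129 in si-Ctrl cells. Peaks within the FOS window that overlapped none of the other list numbered 2 in the si-CHAF1A list and 1 in the si-Ctrl list.

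JUN, at chr1:58780791-58784047 on the minus strand, codes for the partner of FOS in the classic AP-1 dimer. It had 125 summit reads at its start in si-CHAF1A cells and 121 in si-Ctrl cells. The fold was 4.88 in si-CHAF1A cells and 5.68 in si-Ctrl cells, the highest fold among the start peaks of the 10 genes in both lists. Scaled, the reads came to 14.7 in si-CHAF1A cells and 19.1 in si-Ctrl cells, a ratio of 0.772 (0.597 to just under 1.00). The JUN window was sparse, with 2 peaks in the si-CHAF1A list and 3 in the si-Ctrl list. The second shared peak lay 1.1 kb to 1.2 kb before the start, over the start of the divergent noncoding gene JUN-DT, with a fold of 3.15 in si-CHAF1A cells and 3.04 in si-Ctrl cells. A JUN-DT start also lay within 1 kb of the JUN start peak in both lists, so that peak cannot be given to JUN alone.

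JUNB, at chr19:12791486-12793315, is a JUN relative often described as a weaker activator than JUN. It had its start summit at the same base in both lists, 24 bases before the start. There 192 reads were piled up in si-CHAF1A cells and 149 in si-Ctrl cells, with folds of 3.61 in si-CHAF1A cells and 3.75 in si-Ctrl cells. The scaled ratio was 0.963 (0.774 to 1.20). JUNB sits among other genes, and its window held 13 peaks in the si-CHAF1A list and 11 in the si-Ctrl list, 11 of each overlapping a peak of the other. Starts of HOOK2, PRDX2, THSD8 or RNASEH2A lay within 1 kb of several of them, so those peaks cannot be given to JUNB alone. The start peak is one of these, since its summit lies within HOOK2 as annotated and a HOOK2 start is within 1 kb of it in both lists. None of its 8 one-to-one pairs had a ratio whose interval left 1. Of all such pairs 22.1% had an interval below 1 and 1.49% one above 1.

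JUND, at chr19:18279694-18281622 on the minus strand, is the JUN family member that is often expressed without stimulation. It also had a summit at one base in both lists, 249 bases before the start. It carried 193 reads in si-CHAF1A cells and 166 in si-Ctrl cells. Its fold was 4.04 in si-CHAF1A cells and 5.18 in si-Ctrl cells, while the scaled ratio was 0.869 (0.703 to 1.08). The annotated microRNA gene MIR3188 lies wholly under both peaks. The JUND window held 12 peaks in the si-CHAF1A list and 7 in the si-Ctrl list, and all 7 si-Ctrl peaks overlapped one of the si-CHAF1A list. The 5 si-CHAF1A peaks without a partner were weak, with folds of 1.92 to 2.38.

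At the edge of the JUND window, 19.6 kb before the start, lay the peak with the highest fold of the si-CHAF1A list in the 10 windows. It had 219 reads and a fold of 5.72 in si-CHAF1A cells, against 181 reads and a fold of 6.99 in si-Ctrl cells. A weaker pair 10.4 kb to 10.5 kb before the start, by the uncharacterised locus LOC124904653, went the other way. It had 104 reads in si-CHAF1A cells and 53 in si-Ctrl cells, a scaled ratio of 1.47 (1.04 to 2.08), the only ratio among the 10 genes with its whole interval above 1.

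FOSB, at chr19:45467996-45475179, is a FOS relative whose splice form ΔFosB is known from long-lasting neuronal responses. It had no peak within 1 kb of its start. The nearest peak was 1548 bases away in si-CHAF1A cells and 2174 bases away in si-Ctrl cells. Inside the gene, 2.2 kb to 2.3 kb past the start, a shared peak had a fold of 2.28 in si-CHAF1A cells and 2.53 in si-Ctrl cells. The FOSB peak with the most reads lay 12.2 kb before the start, with its summit at the same base in both lists, 211 reads and a fold of 5.31 in si-CHAF1A cells and 153 reads and a fold of 5.15 in si-Ctrl cells. Its scaled ratio was 1.03.

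The FOSB window held 8 peaks in the si-CHAF1A list and 4 in the si-Ctrl list, all 4 of which were shared. Another shared peak, 17.4 kb past the FOSB start within the gene RTN2, had 125 reads in si-CHAF1A cells and 124 in si-Ctrl cells, a scaled ratio of 0.754 (0.583 to 0.974). A shared peak past the end of FOSB covered the whole selenocysteine tRNA gene TRU-TCA1-1, with a fold of 2.90 in si-CHAF1A cells and 3.08 in si-Ctrl cells.

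ATF3, at chr1:212565407-212620777, is a stress-induced bZIP factor that pairs with JUN proteins. It had its peaks inside and past the gene, and none within 1 kb of either RefSeq start used here. Starts of other ATF3 transcripts were not searched, so a peak inside the gene may lie at one. The annotated start had its nearest peak 30589 bases away in si-CHAF1A cells and 1181 bases away in si-Ctrl cells. The other RefSeq start used here, 49611 bases further on, had its nearest peak 5968 bases away in si-CHAF1A cells and 6119 bases away in si-Ctrl cells. The ATF3 peak with the highest fold lay within the gene between these starts, 43.1 kb past the first, with its summit at the same base in both lists. It had 206 reads and a fold of 5.27 in si-CHAF1A cells, against 229 reads and a fold of 7.47 in si-Ctrl cells, the highest fold of the si-Ctrl list in the 10 windows. Its scaled ratio was 0.672 (0.554 to 0.815).

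A second peak within ATF3, 31.1 kb to 31.2 kb past the first start, had 65 reads in si-CHAF1A cells and 91 in si-Ctrl cells, a scaled ratio of 0.534 (0.382 to 0.742). The pair past the gene's end, in the noncoding gene LINC02773, had folds of 3.11 and 2.82 in si-CHAF1A cells and of 4.22 and 3.23 in si-Ctrl cells. All 4 ATF3 peaks of the si-CHAF1A list were shared, and 4 of 6 of the si-Ctrl list. One of the unshared si-Ctrl peaks lay 1.2 kb past the first start, with 25 reads and a fold of 2.90.

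EGR1, at chr5:138465479-138469303, codes for a zinc finger factor and is among the first genes to answer growth signals. It had the deepest start peak of the 10. Its summit held 301 reads in si-CHAF1A cells and 210 in si-Ctrl cells, and the peak was 1467 bases wide in si-CHAF1A cells and 1540 in si-Ctrl cells, ending 7 bases short of the start in the si-CHAF1A list and past it in the si-Ctrl list. Scaled, it reached 35.5 in si-CHAF1A cells and 33.1 in si-Ctrl cells, a ratio of 1.07 (0.895 to 1.28). The fold was 4.26 in si-CHAF1A cells and 4.31 in si-Ctrl cells, over a local background of 69.8 reads in si-CHAF1A cells and 47.9 in si-Ctrl cells. The summits lay 572 bases before the start in the si-CHAF1A list and 853 bases before it in the si-Ctrl list, so they stand upstream of the CArG boxes printed above.

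The rest of the EGR1 window held a chain of weak upstream peaks. One of them, 3.9 kb before the start at chr5:138461421-138461615, had the same first and last base in both lists, with 156 reads in si-CHAF1A cells and 119 in si-Ctrl cells. Of 9 si-CHAF1A and 8 si-Ctrl peaks 6 of each were shared, and all 6 intervals of the scaled ratio held 1. Of all one-to-one pairs 22.1% had an interval below 1 and 1.49% one above 1. Just past the gene a peak was weaker in the si-CHAF1A list, with 78 reads in both lists but a fold of 1.85 in si-CHAF1A cells and 2.95 in si-Ctrl cells.

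KLF2, at chr19:16324826-16328685, codes for a Krüppel-like zinc finger factor known for its response to blood flow in endothelium. It had a start peak in the si-Ctrl list alone. That peak, at chr19:16324539-16324832, had 71 reads, a fold of 3.98 and a −log10 q of 19.4, and it was the strongest of the 17 si-Ctrl window peaks without a partner. Its summit lay 152 bases before the KLF2 start, close to the start of the divergent noncoding gene KLF2-DT. In the si-CHAF1A list the nearest peak to the start was 5768 bases away.

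The other KLF2 peaks lay past the gene and were present in both lists. The one 5.9 kb past the start had its summit at the same base, with 87 reads and a fold of 3.64 in si-CHAF1A cells, against 144 reads and a fold of 7.12 in si-Ctrl cells. Its scaled ratio was 0.452 (0.342 to 0.593). The one 13.5 kb past the start had 63 reads in si-CHAF1A cells and 75 in si-Ctrl cells, a ratio of 0.628 (0.442 to 0.890). Every KLF2 peak was therefore lower or unlisted in the si-CHAF1A list, on 3 peaks in all. Scaled reads were lower in si-CHAF1A cells in 71.7% of all one-to-one pairs.

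NR4A1, at chr12:52022832-52059503, codes for an orphan nuclear receptor also called Nur77. It had the longest row of peaks, 15 in the si-CHAF1A list and 16 in the si-Ctrl list over a gene of 36672 bases and its flanks. Of these 8 in each list were shared. For peaks within 20 kb of any protein-coding gene the shares were 49.1% in the si-CHAF1A list and 63.9% in the si-Ctrl list. A peak within 1 kb of the annotated start was listed in si-Ctrl cells only. It lay 781 bases past this first start and was weak, with 62 reads, a fold of 2.28 and a −log10 q of 6.43. In si-CHAF1A cells the nearest peak to that start was 1806 bases away. The second RefSeq start used here, 14883 bases further on, had no peak within 1 kb in either list. Starts of other NR4A1 transcripts were not searched. Unshared peaks deeper in the gene included one 28.1 kb past the first start in the si-CHAF1A list, with 69 reads. Another lay 30.3 kb past it in the si-Ctrl list, with 57 reads.

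All 8 shared NR4A1 pairs had fewer scaled reads in the si-CHAF1A list, as had 71.7% of all one-to-one pairs. The one with the highest fold in both lists lay 10.2 kb past the first start, with its summit at the same base, 107 reads and a fold of 4.46 in si-CHAF1A cells and 151 reads and a fold of 6.53 in si-Ctrl cells. Its ratio was 0.530 (0.410 to 0.683). The next 2 inside the gene, 3.2 kb and 7.0 kb past the start, had ratios of 0.547 (0.419 to 0.712) and 0.598 (0.443 to 0.804). The summits at 3.2 kb, 7.0 kb and 10.2 kb also lie within the annotated gene LOC124902934, so those peaks cannot be given to NR4A1 alone. The same holds for the si-Ctrl peak within 1 kb of the start, and the pair 1.9 kb before the start has its summits in LOC124902934. A peak 46.8 kb past the start lay near the start of ATG101, an autophagy gene, and its ratio was 0.608 (0.453 to 0.814). The pair 1.9 kb before the start differed less, with 120 reads in si-CHAF1A cells and 96 in si-Ctrl cells and a fold that was higher in si-CHAF1A cells, 4.21 against 3.90 in si-Ctrl cells.

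IER2, at chr19:13150411-13154911, codes for a small nuclear protein induced by many of the same signals. It had its start summit 4 bases before the start in both lists. The summit held 116 reads in si-CHAF1A cells and 138 in si-Ctrl cells. The fold was 2.98 in si-CHAF1A cells and 3.76 in si-Ctrl cells, and the scaled ratio was 0.628 (0.487 to 0.810), the lowest of the 6 shared start peaks. The divergent gene STX10 starts within the same peak, so the peak cannot be given to IER2 alone. A second peak inside IER2, at chr19:13151425-13152170, had the same first and last base in both lists, with 147 reads in si-CHAF1A cells and 183 in si-Ctrl cells, a ratio of 0.600 (0.480 to 0.750).

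Past IER2 lay 3 strong peaks outside any annotated gene, 12.4 kb to 19.5 kb from its start. The broadest was 2344 bases wide in the si-CHAF1A list and 2256 in the si-Ctrl list, with 234 reads in si-CHAF1A cells and 256 in si-Ctrl cells. The middle one, 17.2 kb to 17.3 kb past the start, had 195 reads and a fold of 3.09 in si-CHAF1A cells, against 383 reads and a fold of 5.13 in si-Ctrl cells, the deepest summit of the 10 windows. Its scaled ratio of 0.381 (0.319 to 0.453) was the lowest of the 52 one-to-one pairs of the 10 genes. Of all such pairs in the genome 1.14% were below it, but a pair picked as the lowest of 52 is low by that choice. The last, 19.5 kb past the start, had 123 reads in si-CHAF1A cells and 202 in si-Ctrl cells, a ratio of 0.455 (0.361 to 0.572). All 5 IER2 intervals of the scaled ratio lay below 1, where 22.1% of all one-to-one pairs did so. The fold was lower in si-CHAF1A cells in 4 of the 5 pairs, against 74.1% of all pairs.

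**Figure D2:**
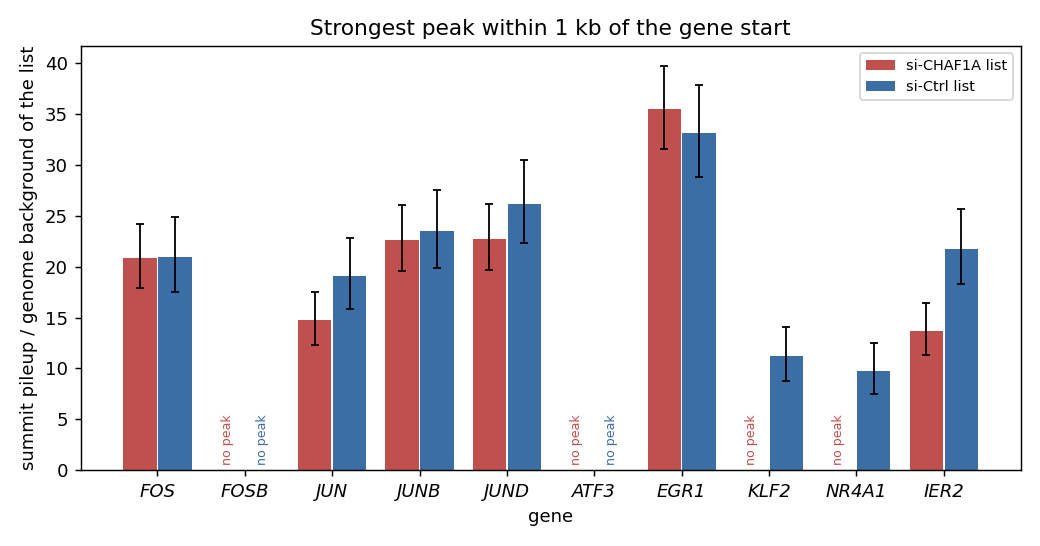
Summit reads divided by the genome background of the same list at the start peaks of the 10 genes, with the si-CHAF1A list left of the si-Ctrl list for each gene and exact Poisson 95% intervals of the reads as error bars; genes with no point have no peak within 1 kb of the start in that list. EGR1 is highest with 35.5 in the si-CHAF1A list and 33.1 in the si-Ctrl list, and IER2 shows the widest gap among shared start peaks with 13.7 in the si-CHAF1A list and 21.8 in the si-Ctrl list.

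Over the 6 genes with a start peak in both lists the fold was lower in si-CHAF1A cells at 6 of 6, and the same held for 80.1% of the 8591 genes that had one in both. The median of their scaled ratios was 0.916, against 0.833 for all such genes. Their summit reads summed to 1104 in the si-CHAF1A list and 917 in the si-Ctrl list, which after scaling gave a ratio of sums of 0.900 (0.824 to 0.983). In this sum EGR1, the deepest peak, weighs most, with 301 of the si-CHAF1A reads and 210 of the si-Ctrl reads. Lower start peaks in si-CHAF1A cells were thus common across the genome.

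Across the windows 52 peaks of the si-CHAF1A list paired with exactly 1 peak of the si-Ctrl list. Fold was lower in si-CHAF1A cells in 41 of 52 pairs, against 74.1% of all pairs, and scaled reads were lower in 36, against 71.7% of all pairs. The median scaled ratio was 0.939, against 0.867 for all pairs. The interval lay below 1 in 16 of 52 pairs, where 22.1% of all pairs did so, and above 1 in 1 pair, where 1.49% of all pairs did so.

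These pairs were unevenly spread over the genes. IER2 had 5 of the 16, NR4A1 4, and KLF2 and ATF3 2 each, and FOS, FOSB and JUN had 1 each. JUNB, JUND and EGR1 had none, with median ratios of 0.976 for JUNB, 1.10 for JUND and 1.03 for EGR1. The medians were 0.600 for IER2, 0.678 for NR4A1, 0.540 for KLF2 and 0.792 for ATF3, and 1.05 for FOS, 0.973 for FOSB and 0.866 for JUN. Pairs of one gene share a neighbourhood and are not replicates, and the difference between genes was not tested.

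**Figure D3:**
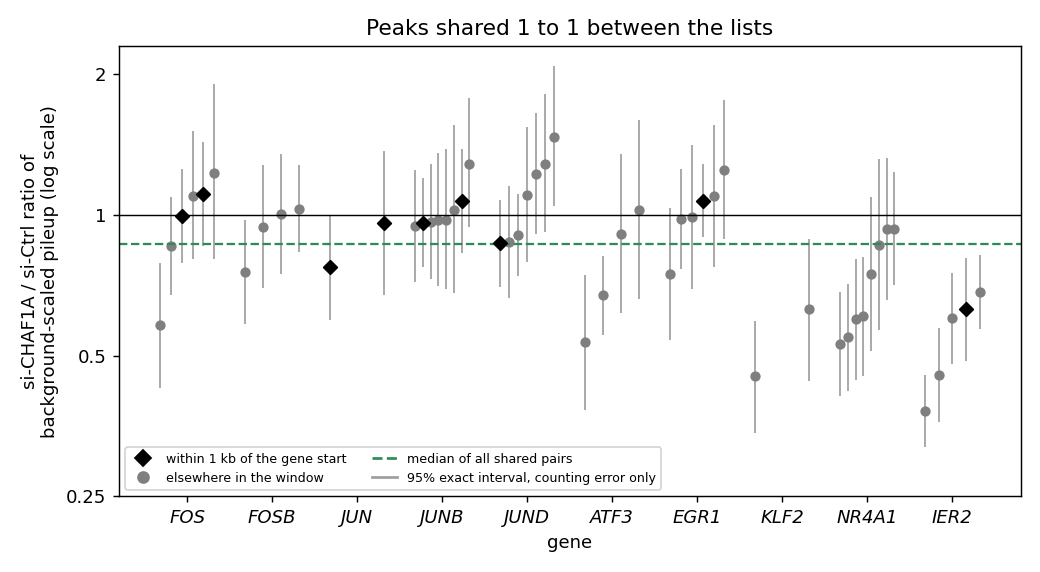
Ratio of scaled summit reads, si-CHAF1A over si-Ctrl, for the 52 one-to-one pairs, by gene on a log axis, with 95% intervals for counting error; the lines mark a ratio of 1 and the median of all pairs, 0.867. All points of NR4A1, IER2, KLF2 and JUN lie below 1, while those of FOS, FOSB, JUNB, JUND and EGR1 lie on both sides of it.

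Sharing of peaks was common in these windows. A peak of the other list overlapped 55 of the 80 si-CHAF1A peaks (68.8%, 95% interval 57.4 to 78.7) and 55 of the 72 si-Ctrl peaks (76.4%, 64.9 to 85.6). For peaks within 20 kb of any protein-coding gene the shares were 49.1% in the si-CHAF1A list and 63.9% in the si-Ctrl list, and for all peaks they were 47.5% in the si-CHAF1A list and 61.9% in the si-Ctrl list. The unshared peaks had a median fold of 2.26 and a highest of 2.75 among 25 in the si-CHAF1A list, and a median of 2.45 and a highest of 3.98, at the KLF2 start, among 17 in the si-Ctrl list. The shared peaks had a median fold of 3.15 in the si-CHAF1A list and 3.66 in the si-Ctrl list. At 12 pairs the summit was the same base in both lists.

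The start peaks of these genes stood on a high local background. At the start peaks of the 10 genes the local background was a median of 5.57 times the genome background in the si-CHAF1A list and 4.96 times in the si-Ctrl list. Over all genes with a start peak it was 1.93 times in the si-CHAF1A list and 2.01 times in the si-Ctrl list. The median fold ran the other way, at 3.86 in the si-CHAF1A list and 4.04 in the si-Ctrl list for the 10 genes. For all genes it was 4.64 in the si-CHAF1A list and 5.67 in the si-Ctrl list. Fold divides by the local background, so these 2 measures are tied. In scaled reads the start peaks of the 10 genes were higher, with medians of 21.7 in the si-CHAF1A list and 21.4 in the si-Ctrl list. For all genes with solved reads these medians were 9.78 in the si-CHAF1A list and 12.1 in the si-Ctrl list. The windows also held more peaks for their length, a median of 1.77 per 10 kb in the si-CHAF1A list and 1.59 in the si-Ctrl list, against 0.581 in the si-CHAF1A list and 0.453 in the si-Ctrl list for all genes. Gene length enters this density, and its part was not tested. Nearby peaks may also enter the local background, so the density and the background may not be separate observations, and this was not tested. As plain counts the gap was smaller, a median of 8 peaks a window in the si-CHAF1A list and 7 in the si-Ctrl list. For all genes these medians were 5 in the si-CHAF1A list and 4 in the si-Ctrl list.

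FOSB, JUNB, JUND, KLF2 and IER2 lie on chromosome 19, which is dense in genes and peaks. Its genes had a median of 1.16 peaks per 10 kb in the si-CHAF1A list and 0.834 in the si-Ctrl list, and a start background of 2.64 times the genome background in the si-CHAF1A list and 2.59 times in the si-Ctrl list. Both are above the medians of all genes and below those of the 10 genes. The part of the chromosome in the values of the 10 genes was not tested.

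**Figure D4:**
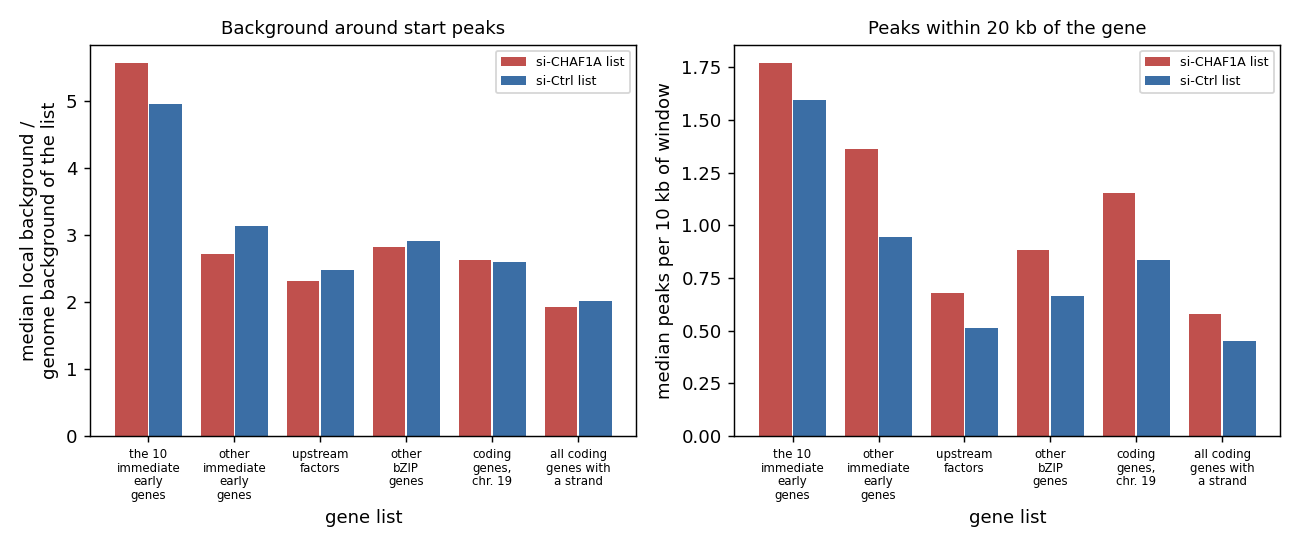
Median local background at start peaks as a multiple of the genome background (left) and median number of peaks per 10 kb of window (right) for the 10 genes, the related gene lists, the genes of chromosome 19 and all protein-coding genes with a strand, with the si-CHAF1A bar left of the si-Ctrl bar. The 10 genes have the highest bars in both panels, on the left 5.57 for si-CHAF1A and 4.96 for si-Ctrl, and on the right 1.77 for si-CHAF1A and 1.59 for si-Ctrl.

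Other genes of the same response were read the same way. Of 28 further immediate early genes 21 had a known strand, and 15 of them had a start peak in the si-CHAF1A list and 16 in the si-Ctrl list. These are 71.4% and 76.2%, against 61.2% and 58.7% of all genes with a strand. Their median local background was 2.72 times the genome background in the si-CHAF1A list and 3.14 times in the si-Ctrl list. Their windows held a median of 1.36 peaks per 10 kb in the si-CHAF1A list and 0.946 in the si-Ctrl list. Both lie between the 10 genes and all genes. The highest fold in both lists was at FOSL2, which codes for the FOS relative FRA2, with a fold of 6.30 in si-CHAF1A cells and 7.30 in si-Ctrl cells. KLF6, a KLF2 relative, had a fold of 4.24 in si-CHAF1A cells and 6.31 in si-Ctrl cells, and CSRNP1 had a start peak in the si-Ctrl list only, with a fold of 2.28.

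Of 21 genes of the kinases and factors that act upstream 20 had a known strand. A start peak was listed for 18 of them in the si-CHAF1A list and for 16 in the si-Ctrl list. These are 90% and 80%, against 61.2% and 58.7% of all genes with a strand. They were led by the stress kinase MAPK14 with a fold of 13.8 in si-CHAF1A cells and 15.7 in si-Ctrl cells. SRF, the factor that binds CArG boxes, had a fold of 4.76 in si-CHAF1A cells and 6.46 in si-Ctrl cells. CREBBP, a histone acetyltransferase that CREB recruits, and the kinase MAPK3 had a start peak in the si-CHAF1A list only, with folds of 5.41 and 3.59. Of 18 other bZIP genes 15 had a known strand, and 12 of them, or 80%, had a start peak in each list. BACH2 had it in the si-CHAF1A list only, with a fold of 3.60, and MAFG in the si-Ctrl list only, with a fold of 2.16.

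Cell type marker genes were also read. Peaks at either end of the gene were listed for 5 of 6 biliary marker genes in the si-CHAF1A list and for all 6 in the si-Ctrl list. Of 6 hepatocyte markers 2 had one in each list. Of 4 immune markers 2 had one in the si-CHAF1A list and 1 in the si-Ctrl list, of 4 fibroblast markers 1 had one in each list, and of 3 endothelial markers 2 had one in the si-CHAF1A list and 0 in the si-Ctrl list. Of all 20037 protein-coding genes 12874 had one in the si-CHAF1A list and 12240 in the si-Ctrl list. Such peaks are thus common and do not measure expression, so these few genes do not check the identity of the cells.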

How the data were processed

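CHAF1A CUT&Tag peaks of RBE cells were analysed from 2 deposited lists, 1 per group of 2 samples; no source used here states how the samples were combined. The submitters' processing notes name fastp 0.20.1, Bowtie2 2.2.5, MACS2 2.1.2, deepTools 3.4.3 and hg38. The authors deposited a fold enrichment, which is a linear ratio, and −log10 p and −log10 q values for each peak. Coordinates are printed counting from 1.

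Only chromosomes 1 to 22, X and Y were used, leaving out 886 si-CHAF1A and 868 si-Ctrl peaks. The fold, read as (reads + 1)/(background + 1), and p, read as a Poisson tail, were solved together for −log10 p under 290, and the solver was tested on simulated data. Gene positions, strands and promoters came from RefSeq GRCh38.p14; 15843 of 20037 protein-coding genes had a strand. A start peak overlaps the 1 kb on either side of the annotated gene start, and the strongest is given. Sharing is overlap by 1 bp. Intervals are 95% exact binomial or Poisson intervals. The members, all of which are named, and the gene lists were chosen with earlier results of these data known. Sequencing depth is unknown; exons were not used here. Results were recomputed with −log10 q minimums of 5 and 10, equal list sizes, the si-CHAF1A list scaled to the si-Ctrl background, 50% reciprocal overlap, other windows and the local background. Tools were Python 3.11.15 with scipy 1.17.1, pandas 2.3.3, numpy 2.4.6 and matplotlib 3.10.9.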

Additional observations from a re-analysis of the deposited data

How the results depend on the processing

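Of 44 recomputed values 35 stayed within the limits set for a change and 9 moved. This tally is not a measure of robustness, since some settings left the same peaks in use. The summed start ratio stayed at 0.900, from the same reads, under both q minimums, equal list sizes and either gene end. Counts in other windows also change with the area covered. The window peaks numbered 53 in the si-CHAF1A list and 45 in the si-Ctrl list at −log10 q of at least 10, 45 and 44 within 10 kb of the genes, and 144 and 124 within 50 kb. With 50% reciprocal overlap the shared part was 53.8% of the si-CHAF1A peaks and 59.7% of the si-Ctrl peaks, and at −log10 q of at least 10 it was 88.9% of the si-Ctrl peaks. The genes with a start peak numbered 8 in the si-CHAF1A list and 10 in the si-Ctrl list within 3 kb of the start. At −log10 q of at least 10 NR4A1 had no start peak in either list, and KLF2 kept its start peak in the si-Ctrl list. The summed start ratio was 0.859 within 3 kb and 0.870 over the local background. With the si-CHAF1A list scaled to the si-Ctrl background 93336 of 97653 peaks passed, and all 80 in the windows did. No paired analysis was possible because each group has 1 list that does not keep its samples apart, and for the same reason no replicate could be left out.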

Other observations

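The windows end where peaks go on. The outermost peak inside a window lay 19751 bases from NR4A1 in the si-CHAF1A list, with a fold of 2.65, and 19563 bases from JUND in the si-Ctrl list, with a fold of 6.99. The nearest peak outside lay by EGR1, 20118 bases away with a fold of 2.48 in the si-CHAF1A list and 20199 bases away with a fold of 2.097 in the si-Ctrl list. Taking the nearest outside peak of each gene, the farthest lay by FOS in the si-CHAF1A list, 25944 bases away, and by KLF2 in the si-Ctrl list, 45140 bases away.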
